A study of Gallus gallus with 4 samples.

Results

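Chicken trachea libraries were set against each other by their sex chromosome reads: 2 of the 4 libraries held many reads of W-placed genes and are called hen-like, and 2 held almost none and are called cock-like. The hen-like libraries were hydrogen sulfide replicate 1 and control replicate 2. The cock-like libraries were hydrogen sulfide replicate 2 and control replicate 1. The sides were chosen by a measured value, the summed reads of 4 W-placed genes, LOC427025, LOC374195, LOC769000 and LOC100859467, which came to 5074 and 4166 reads in the hen-like libraries and to 6 and 0 reads in the cock-like ones. No label gives the sex of a bird, so both names describe the reads and are not groups of the study.

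RNA was sequenced from the trachea of chickens at 42 days of age. Hydrogen sulfide birds breathed air with 3.5 to 4.5 mg/kg of the gas during weeks 0 to 3, then 19.5 to 20.5 mg/kg during weeks 4 to 6. Control birds lived in another chamber with no added gas. The labels used here give neither a strain nor the number of birds behind a library, so every p-value below measures only the spread between these 4 libraries. Each side holds 1 hydrogen sulfide and 1 control library, so exposure and chamber are balanced over the sides and were kept as a block. Total counts ran from 16899066 to 22706119 reads per library.

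In birds the female carries a Z and a W chromosome and the male carries a pair of Z chromosomes. Birds do not balance the dose of the whole Z between the sexes, so many Z genes have more RNA in males, and compensation is known to differ from gene to gene. The W keeps a small set of genes, most of them with a partner on the Z, and these are thought to preserve the dose of regulators that both sexes need. One stretch of the chicken Z, the male hypermethylated locus, makes long noncoding RNA in females and is silent in males.

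Of the 26296 genes in the table, 17537 were found in the RefSeq gene table of assembly GRCg7b, which places 45 of them on W and 882 on Z. A W gene with any read was found 33 times, and 12 had none. The W genes were used, in part, to choose the sides, so their levels are described without a test. Levels are CPM, in which the reads of each library are brought to one total after TMM normalisation.

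LOC427025 had 1955 and 1588 reads in the hen-like libraries, in the order hydrogen sulfide replicate 1 and control replicate 2, and 4 and 0 reads in the cock-like libraries, in the order hydrogen sulfide replicate 2 and control replicate 1. The same order holds for every set of values below. LOC374195 had 1267 and 1157 against 1 and 0 reads. LOC769000 had 1031 and 733 against 1 and 0 reads, and LOC100859467 had 821 and 688 against 0 and 0. These 4 genes separated the libraries without overlap, as the choice of the sides requires. Most of the other abundant W genes showed the same split. LOC107049174 had 719 and 517 reads and LOC100859602 had 547 and 386, each with no read in a cock-like library. LOC430910 had 436 and 219 reads against 1 and 0, and was among the W genes whose level differed most between the hen-like libraries, at 20.2 and 12.9 CPM.

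Not every gene that GRCg7b places on W behaved in this way. NEDD4L, a ubiquitin ligase that limits sodium channels in epithelia, had 1799 and 1438 reads in the hen-like libraries and 3176 and 2299 in the cock-like ones. Its mean level was 84.1 CPM against 134.5 CPM, so it was higher on the side that lacks reads of most other W-placed genes. MBD2, a methyl-CpG binding protein, had 102 and 94 against 71 and 133 reads. SKA1, a protein of the spindle and kinetochore, had 116 and 40 against 32 and 51 reads. NEDD4L, MBD2 and SKA1 were placed on W by symbol alone, and the build behind the counts is not given. Whether their reads come from W is therefore uncertain. Without NEDD4L, MBD2 and SKA1 the W genes held 9372 and 7547 reads in the hen-like libraries and 62 and 7 in the cock-like ones. Of those 62 reads, 38 belonged to LOC100857299, which had none elsewhere.

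**Figure D1:**
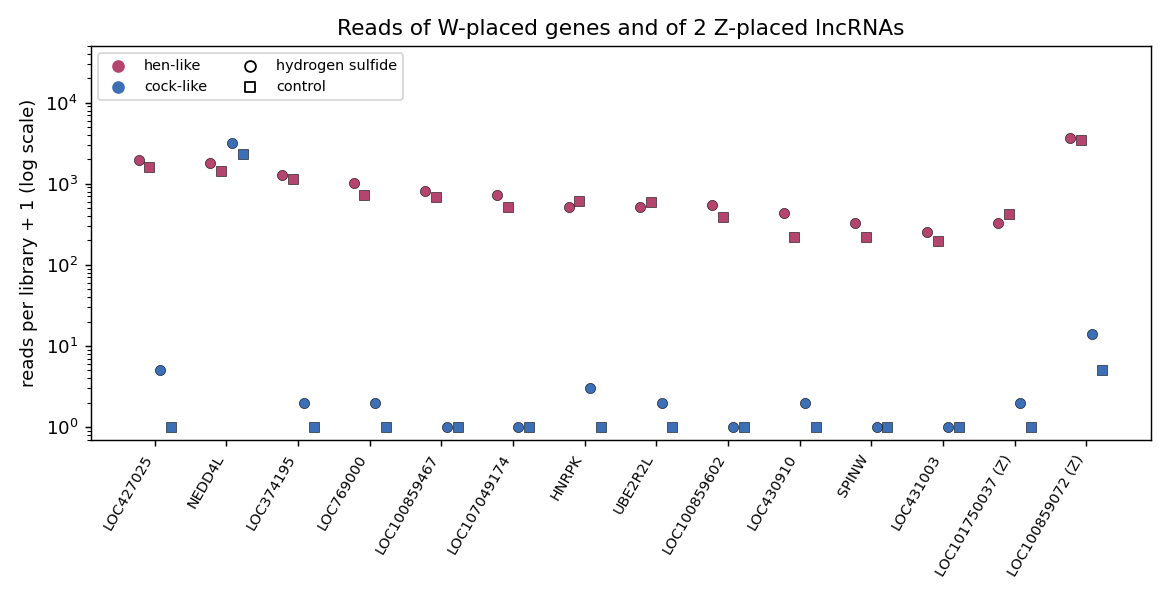
Reads per library plus 1, on a log scale, of the 12 most abundant W-placed genes and of the Z-placed lncRNAs LOC101750037 and LOC100859072. Colour marks hen-like or cock-like and shape marks hydrogen sulfide or control. NEDD4L is the only W-placed gene shown with more reads in the cock-like libraries, 3176 and 2299, and LOC100859072 has 3620 and 3469 reads in the hen-like libraries against 13 and 4.

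A pair of genes outside W was as one-sided as the W genes, and both members are noncoding RNA genes that the reference places on Z. In the order of tested Z genes they stand next to each other, between SLC1A1 and CDC37L1, though the reference has other genes among them. LOC100859072 had 3620 and 3469 reads against 13 and 4, or 168 and 205 against 0.588 and 0.218 CPM. It passed the filter on low counts only through the hen-like side, so no test of it is given, and the same holds for its neighbour. LOC101750037 had 329 and 418 reads against 1 and 0. Both were present in each hen-like library and nearly absent from each cock-like one, in the hydrogen sulfide pair and in the control pair alike. These genes were chosen after their values were seen, and the reference does not name them as the male hypermethylated locus.

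The tested Z genes next to this pair did not share its direction. SLC1A1, a glutamate transporter and the neighbour on one side, stood at 30.5 and 24.2 against 39.8 and 43.5 CPM (log2 difference, hen-like minus cock-like, -0.61, SE 0.23). RFX3, a transcription factor of ciliated cells that lies farther out on that side, stood at 104 and 161 against 266 and 201 CPM (-0.84, SE 0.33). On the other side CDC37L1, a chaperone partner, stood at 19.8 and 22.4 against 28.8 and 25.2 CPM (-0.36, SE 0.24). All 3 were lower in each hen-like library. Beyond CDC37L1, AK3 overlapped between the sides, at 40.6 and 22.5 against 42.5 and 37.8 CPM (-0.41, SE 0.26). After it, RCL1 and JAK2 had log2 differences of -0.08 and -0.06, and JAK2, a kinase of cytokine receptors, overlapped between the sides. RLN1, a relaxin, and CD274, the immune checkpoint ligand PD-L1, were higher in each hen-like library. RLN1 had a log2 difference of 1.86 but rested on only 34 and 42 against 7 and 16 reads, so no test of it is given. CD274 had a log2 difference of 0.61 (SE 0.32) and did not pass the test.

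UBAP2, a ubiquitin-associated protein, had 117 and 103 reads against 0 and 1. Its name in the table fits both a Z gene and a W gene of the reference, so it was put in neither class. Another 23 genes that were not found in the reference had at least 20 reads in each hen-like library and at most 3 in the cock-like libraries together, a limit chosen after the values were seen. They held 4978 and 3732 reads against 4 and 8. A single gene, LOC100857809, which was not found in the reference either, had the reverse pattern.

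Several W genes have a partner on Z that the table lists as a gene of its own, which lets the copies be compared. HNRNPK encodes an RNA-binding protein of splicing and transcription. Its Z gene stood at 44.5 and 60.2 CPM in the hen-like libraries against 88.8 and 93.5 CPM, and the W gene HNRPK at 23.9 and 36.6 CPM against 0.0905 and 0. The hen-like Z level was 57.5% of the cock-like one, and the sum of both copies was 90.7% of it. The W gene held 36.6% of the reads of the pair, on the scale of CPM, in the hen-like libraries. UBE2R2, a ubiquitin-conjugating enzyme, stood at 43.5 and 44.8 against 69.5 and 70.3 CPM for the Z gene, with 24.0 and 35.0 CPM from the W gene UBE2R2L. Its Z level was 63.2% and its sum 105% of the cock-like Z level. For both pairs the sum came near the cock-like level, although in hydrogen sulfide replicate 1 the HNRNPK sum was 68.4 CPM, below both cock-like libraries.

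The spindlin pair did not come near it. SPINZ, the Z copy of a chromatin reader, stood at 118 and 134 against 233 and 227 CPM, and SPINW at 15.2 and 12.9 CPM. The Z level was 55.0% and the sum 61.1% of the cock-like level. HINT1, a nucleotide hydrolase, stood at 16.4 and 12.4 against 25.4 and 38.7 CPM on Z, while HINTW had 3 and 1 reads. SMAD7, an inhibitor of TGF-beta signalling, stood at 33.2 and 86.9 against 49.1 and 39.4 CPM, so its sides overlapped, and its W partner SMAD7B had a single read. ATP5A1, the alpha subunit of ATP synthase, stood at 214 and 125 against 244 and 378 CPM and had no W row in the table. Z and W copies are alike in sequence, and how the authors' counting treated reads that fit both is not given, so the split within each pair is uncertain.

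**Figure D2:**
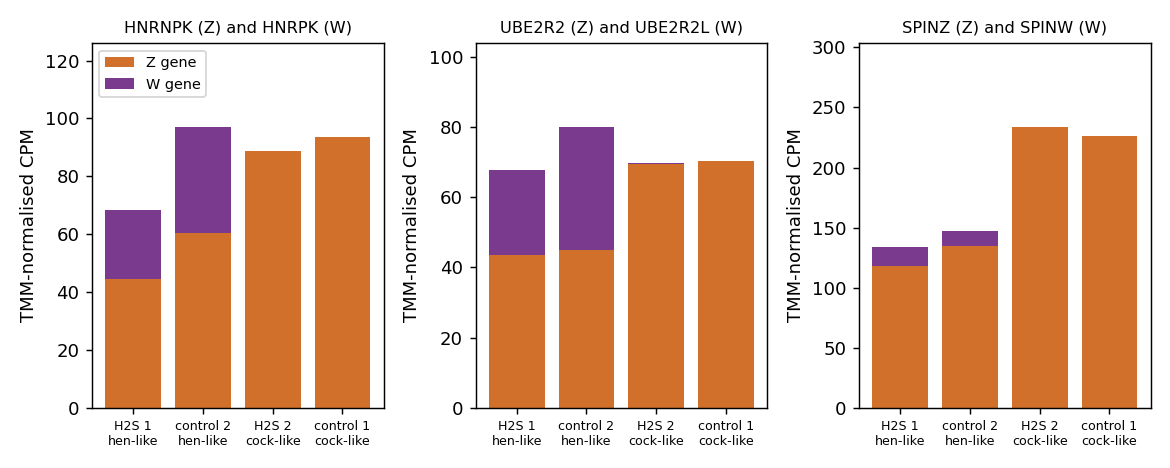
TMM-normalised CPM of the Z copy (orange) and W copy (purple) of 3 gene pairs in each library, stacked from 0. The Z copy is lower in both hen-like libraries in each panel, and the stacked sum is 90.7%, 105% and 61.1% of the cock-like Z level for HNRNPK, UBE2R2 and SPINZ.

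The same held for most Z genes with a W partner or a former one. Of 26 such Z genes, 24 were lower on the hen-like side, 23 with no overlap between the sides. Lower with no overlap were 63.4% of all tested Z genes and 14.5% of all tested genes. The median log2 difference of the 26 was -0.67, beside -0.565 over all tested Z genes, and this gap was not tested. RASA1, which switches off RAS, stood at 62.7 and 64.1 against 114 and 107 CPM (-0.81, SE 0.18), and KCMF1, a ubiquitin ligase, at 45.2 and 37.8 against 70.7 and 69.6 CPM (-0.76, SE 0.19). CHD1, a chromatin remodeller whose copies are used to sex birds, stood at 109 and 119 against 192 and 157 CPM (-0.61, SE 0.22). The exceptions that overlapped were ZSWIM6, SUB1 and SMAD7. SUB1, a transcription coactivator, was level, at 137 and 139 against 150 and 119 CPM. None of these genes passed the edgeR test.

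Beyond the genes with partners, the Z chromosome as a whole was lower in the hen-like libraries. Z genes took 3.43% and 3.16% of all reads there and 4.78% and 4.75% in the cock-like libraries. Over the 640 Z genes with enough reads to be tested, the median log2 difference was -0.565, a ratio of 0.676, against 0.036 over 13006 autosomal genes. It was -0.561 in the hydrogen sulfide pair and -0.578 in the control pair, which share no library. In bulk tissue, fewer cells of a type and less RNA per cell cannot be told apart.

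The libraries split cleanly by this measure. Relative to the autosomal median, Z genes deviated from their own mean over the libraries by -0.263 and -0.308 in the hen-like libraries and by 0.306 and 0.282 in the cock-like ones. The difference of -0.579 had a two-sided exact permutation p of 0.333 over 6 arrangements, which is the smallest that 2 libraries against 2 allow. The arrangements took no account of exposure, so this p ignores the block. Across 28 autosomes with at least 100 tested genes, the chromosome medians ran only from 0.013 to 0.057. In single pairs they ran from -0.041 to 0.129 with hydrogen sulfide and from -0.073 to 0.082 in the controls, so none of these 28 came near the Z. Smaller autosomes varied more in single pairs: chromosome 31, with 32 tested genes, had a median of 0.45 with hydrogen sulfide and -0.36 in the controls.

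**Figure D3:**
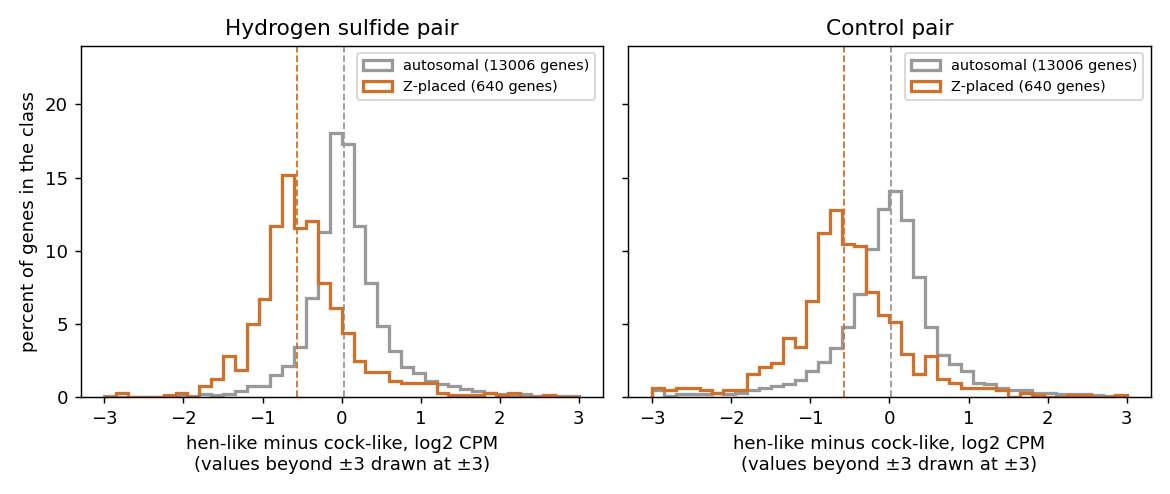
Percent of Z-placed genes (orange, 640 genes) and autosomal genes (grey, 13006 genes) by their hen-like minus cock-like difference in log2 CPM, for the hydrogen sulfide pair and the control pair. Dashed lines are medians, at -0.561 and -0.578 for Z genes and at 0.032 and 0.017 for autosomal genes.

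The shift was broad but uneven from gene to gene. Of the 640 Z genes, 558 (87.2%) were lower on the hen-like side and 406 (63.4%) were lower with no overlap, beside 14.5% of all tested genes and 11.8% of autosomal ones. In the other direction 19 (2.97%) were higher with no overlap, beside 14.0% of all tested genes. Lower in both pairs were 448 Z genes, or 70.0%, against 18.2% of autosomal genes. The lower and upper quartiles of Z genes were -0.802 and -0.261, and 77 genes were below -1. A further 82 genes were at or above 0, of which 24 were at 0.5 or more. The Z median was -0.40 below 1 CPM, near -0.61 in the 3 classes from 1 to 100 CPM and -0.48 at 100 CPM and above.

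The lower level was found along the whole chromosome. In 16 blocks of 40 neighbouring tested genes, the median ran from -0.701 to -0.377. In every block 20 to 30 of the 40 genes were lower with no overlap. Coding Z genes had a median of -0.555 over 581 genes and lncRNA genes -0.767 over 39. The lncRNA median was uneven, at -0.469 in the hydrogen sulfide pair and -0.850 in the control pair, where coding genes had -0.558 and -0.568. Lower with no overlap were 53.8% of the lncRNA genes and 64.2% of the coding ones, beside 14.5% of all tested genes.

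**Figure D4:**
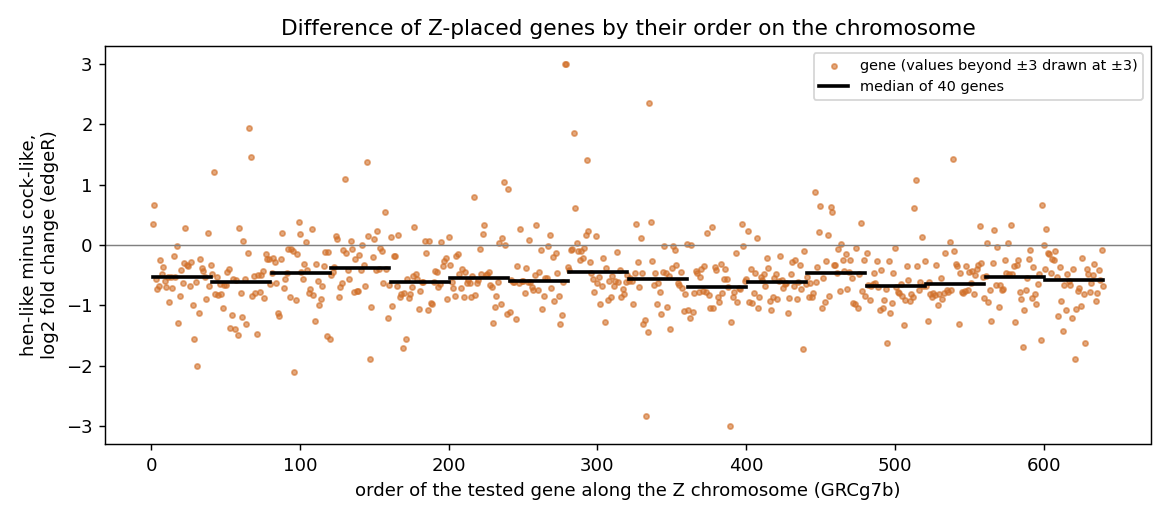
Log2 difference (hen-like minus cock-like, edgeR) of the 640 tested Z genes in their order along the chromosome, with black lines at the median of each block of 40 genes. All 16 block medians lie between -0.701 and -0.377, and both points drawn at 3 are the lncRNAs LOC101750037 and LOC100859072.

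The most abundant Z genes, chosen after their values were seen, show both kinds of behaviour. AQP3, a water and glycerol channel of airway basal cells, stood at 491 and 304 against 807 and 564 CPM. GNE, the key enzyme of sialic acid synthesis, stood at 487 and 340 against 853 and 576 CPM, and SLC12A2, the sodium, potassium and chloride cotransporter that feeds airway secretion, at 376 and 288 against 675 and 410 CPM. All 3 were lower in each hen-like library than in either cock-like one. TLN1, which links integrins to actin, overlapped, at 443 and 523 against 477 and 532 CPM. The muscle genes CMYA5 and TPM2 went opposite ways in the pairs. TPM2, a tropomyosin, stood at 1071 and 192 against 578.5 and 1177 CPM.

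Test by test, the design gave little power. No gene of 16545 passed an adjusted p of 0.05 in edgeR's quasi-likelihood test (0% called), and W genes were not counted as calls. Outside W, 579 genes had an unadjusted p under 0.05, and 201 of these were Z genes lower on the hen-like side. Over all tested genes 3.61% had such a p, 2.41% lower and 1.21% higher. DESeq2 called 24 genes outside W, 14 higher and 10 lower, and limma-voom called none. With W genes counted, DESeq2 called 0.212% of all tested genes, and 11 of these calls were W genes. Of the 14 higher calls, 12 had at most 17 reads in the cock-like libraries together and could pass the filter only through the hen-like side. They are both Z lncRNAs, UBAP2 and 9 genes not found in the reference, and the other higher calls were MYH13 and MYH1D. Among the 10 lower calls, LOC100857809 had 0 and 1 hen-like reads and LOC418209 had 10 and 12. Both could pass the filter only through the cock-like side. Of the 24 calls outside W, 6 were on Z, 5 were autosomal and 12 were not found in the reference.

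The largest decreases on Z included a run of genes used in motile cilia. CAPSL, a calcium-binding protein of ciliated cells, stood at 35.5 and 37.8 against 106 and 110 CPM (log2 difference -1.55, SE 0.18, edgeR adjusted p 0.59). SPEF2, needed for the central pair of the axoneme, stood at 135 and 148 against 455 and 357 CPM (-1.51, SE 0.25). DNAI1, an intermediate chain of the outer dynein arm, stood at 27.3 and 22.8 against 75.1 and 65.0 CPM (-1.48, SE 0.19). In each of these genes the cock-like libraries held more than double the hen-like level, and all 3 passed in DESeq2 with adjusted p of 0.0159, 0.0272 and 0.049.

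Other large decreases on Z were not all tied to cilia. CDC20B, whose locus takes part in making multiciliated cells in vertebrates, stood at 1.81 and 5.55 against 8.14 and 13.2 CPM (-1.70, SE 0.40). LVRN, an aminopeptidase, stood at 20.1 and 10.9 against 42.3 and 46.6 CPM (-1.58, SE 0.33). ANXA1, an annexin that limits inflammation, stood at 161 and 118 against 349 and 407 CPM (-1.45, SE 0.27). The sides did not overlap for any of them. FAM81B and LOC101750148 had log2 differences of -1.63 (SE 0.31) and -2.82 (SE 0.34), and only LOC101750148 of these 5 passed in DESeq2.

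A few Z genes were higher on the hen-like side. Apart from both lncRNAs, the named increases were CCL19, LOC100857191, GLDC, EGFLAM, THBS4 and LOC100857745. GLDC, the glycine decarboxylase of mitochondria, stood at 11.2 and 13.4 against 5.52 and 3.82 CPM (1.41, SE 0.37). EGFLAM, the matrix protein pikachurin, stood at 47.8 and 38.9 against 26.3 and 15.4 CPM (1.10, SE 0.24). CCL19, a chemokine that draws lymphocytes, stood at 21.0 and 16.5 against 1.58 and 13.6 CPM (1.95, SE 1.01), and hydrogen sulfide replicate 2 set most of that difference. None of these 6 genes passed in either tool.

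The genes of motile cilia were lower off the Z as well. All 27 tested genes of the ciliated cell list were lower on the hen-like side, 23 with no overlap, beside 14.5% of all tested genes. The 4 on Z, CAPSL, CCNO, SPEF2 and DNAI1, had a median of -1.53. The 23 autosomal members had a median of -0.47, and 19 were lower with no overlap, beside 11.8% of autosomal genes. The list's median was -0.625 in the hydrogen sulfide pair and -0.393 in the control pair.

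Single autosomal cilia genes showed smaller differences. CCDC39, a ruler of the axoneme's repeat, stood at 48.3 and 54.5 against 80.5 and 83.8 CPM (-0.68, SE 0.18). TEKT1, a tektin inside the doublet microtubules, stood at 68.5 and 83.3 against 112 and 116 CPM (-0.59, SE 0.19). FOXJ1, the master regulator of motile cilia, stood at 157 and 177 against 232 and 189 CPM (-0.33, SE 0.23). These 3 were lower in each hen-like library, while DNAH9, DNAH7, CCDC40 and TPPP3 overlapped. No autosomal member passed either tool. The list's summed level was 2595 and 2706 CPM against 4138 and 3417 CPM. Leaving the list out, Z genes stood -0.598 from the autosomal median, against -0.601 with it.

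**Figure D5:**
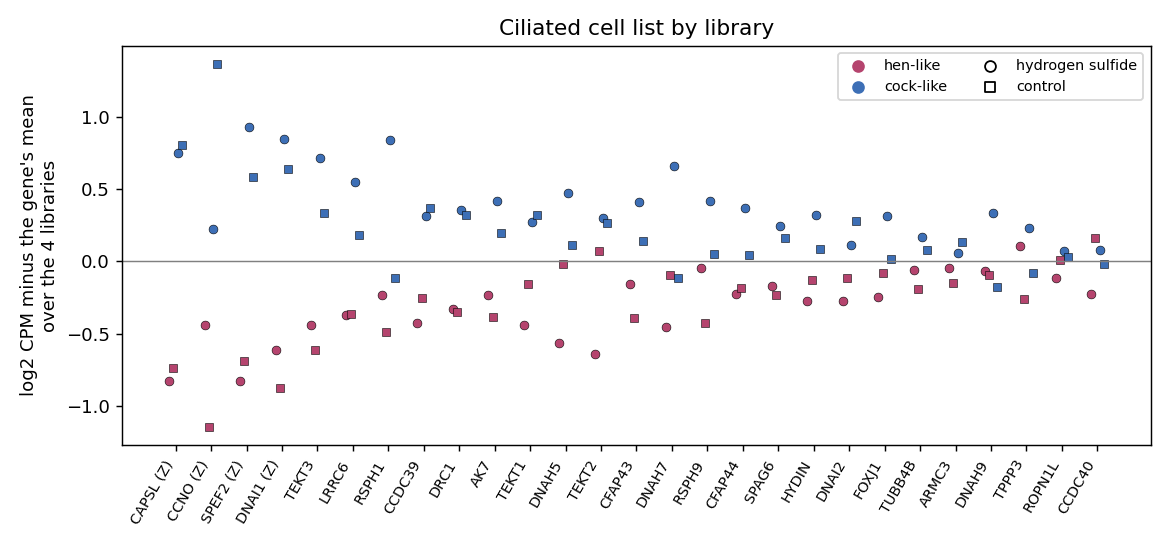
Log2 CPM of each of the 27 tested genes of the ciliated cell list minus that gene's mean over the 4 libraries, by library, ordered by the hen-like minus cock-like difference. The 4 Z genes are leftmost with the largest differences, and 23 of the 27 genes do not overlap between the sides.

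Cytosolic ribosome genes allow Z and autosomal members of one complex to be set side by side. RPS6, RPS23, RPL17 and RPL37 lie on Z, and all 4 were lower on the hen-like side, with a median log2 difference of -0.57. RPS6 stood at 269 and 289 against 454 and 348 CPM. RPS23 had a log2 difference of -0.68 (SE 0.20). The 53 autosomal members had a median of 0.20, and 23 were higher with no overlap, beside 14.0% of all tested genes. For the whole list the median was 0.09 in the hydrogen sulfide pair and 0.30 in the control pair. Its mean log2 deviation was 0.10 and 0.06 against 0.07 and -0.23, so control replicate 1 stood apart. No member passed the test.

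Lists of genes tied to the sexes by function rather than by chromosome shared no common direction. Among 24 sex steroid receptors and cofactors, the median was 0.13, and 6 had a negative log2 difference. Without overlap, 4 were lower, beside 14.5% of all tested genes, and 6 were higher, beside 14.0%. The estrogen receptor ESR1 stood at 31.4 and 28.3 against 21.8 and 22.8 CPM (0.42, SE 0.22). It was higher in each hen-like library. The progesterone receptor PGR was at 0.648 and 0.885 against 1.54 and 4.80 CPM (-1.86, SE 0.56). PGR rested on only 14 and 15 against 34 and 88 reads, with the most in control replicate 1. Of 19 genes of steroid synthesis and conversion the median was -0.02. HSD17B4, a Z gene that inactivates estradiol and oxidises fatty acids, stood at 86.5 and 65.1 against 138 and 137 CPM (-0.88, SE 0.21).

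The egg and yolk list, only some of whose genes estrogen turns on in the laying hen, had a median of 0.30 over 14 tested genes. The yolk precursor genes VTG1 and VTG2 stayed low on both sides. VTG1 stood at 1.95 and 3.13 against 1.36 and 0.709 CPM, and VTG2 at 1.67 and 3.84 against 1.58 and 0.491 CPM. OVST, ovostatin, stood at 12.8 and 19.6 against 7.74 and 5.07 CPM (1.33, SE 0.42). All 3 were higher in each hen-like library, but VTG2 by only 36 against 35 reads in the hydrogen sulfide pair. None passed the test. In the whole list, 4 genes were higher with no overlap, beside 14.0% of all tested genes, and 4 had a negative log2 difference. None was lower with no overlap, beside 14.5% of all tested genes. The list's median was 0.51 in the hydrogen sulfide pair and 0.12 in the control pair. Over 14 genes of gonad differentiation the median was -0.07, and over 17 of the growth hormone and prolactin axis 0.12. GHR, the growth hormone receptor on Z, stood at 6.67 and 0.708 against 1.36 and 0.654 CPM, so only hydrogen sulfide replicate 1 was high.

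The list named for dosage and male determination held 8 tested Z genes, DMRT2, TLE1, TLE4, KLF9, SMARCA2, VLDLR, CDKN2A and JAK2. All 8 had a negative log2 difference. Only 2 were lower with no overlap, beside 63.4% of Z genes and 14.5% of all tested genes. TLE1, TLE4, VLDLR and JAK2 went opposite ways in the pairs. The median of the 8 was -0.17, with -0.45 in the hydrogen sulfide pair and -0.02 in the control pair. Its difference from the other Z genes was not tested. DMRT2, a relative of the testis gene DMRT1, stood at 23.4 and 19.8 against 33.8 and 36.7 CPM (-0.71, SE 0.23). DMRT1 itself was not among the tested genes of the list. VLDLR, the receptor that takes up yolk in the oocyte, overlapped, at 139 and 74.9 against 103 and 122 CPM. The 19 Z genes of the immune list had a median of -0.22. Without overlap, 4 were lower, beside 63.4% of Z genes and 14.5% of all tested genes. Another 3 were higher without overlap, beside 2.97% of Z genes and 14.0% of all tested genes. IL31RA, a cytokine receptor, stood at 38.4 and 28.3 against 62.8 and 45.6 CPM (-0.70, SE 0.19). IL7R, a receptor of lymphocytes, stood at 16.9 and 20.7 against 21.0 and 19.4 CPM and overlapped.

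Away from the sex chromosomes, myosin genes had the largest named differences. MYH13, a myosin heavy chain of fast muscle, stood at 98.3 and 24.7 against 2.53 and 1.47 CPM (4.69, SE 0.42, edgeR adjusted p 0.301), and it passed in DESeq2. MYH1D, of the same family, stood at 2333 and 131 against 33.9 and 24.8 CPM (4.26, SE 1.17), and it too passed in DESeq2. Both were higher in each hen-like library, but reads of this gene family can be split between near-identical copies. The skeletal muscle list as a whole did not follow them. Its summed level was 18074 and 3171 against 7388 and 15799 CPM, and its part in the result was not tested.

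Other autosomal genes were named by the size of their p. LOC425117 stood at 8.99 and 8.02 against 46.1 and 35.3 CPM (-2.25, SE 0.23), and LOC107052288 at 141 and 66.9 against 444 and 199 CPM (-1.62, SE 0.21). Both were lower in each hen-like library and passed in DESeq2. LOC418209 stood at 0.463 and 0.708 against 7.46 and 6.65 CPM, on 10 and 12 against 165 and 122 reads. It passed the filter on low counts only through the cock-like side, so its DESeq2 call is no support. STAT4, which relays interleukin-12 signals in T cells, stood at 102 and 88.7 against 36.0 and 38.3 CPM (1.35, SE 0.20). SOD3, the extracellular superoxide dismutase, stood at 39.9 and 61.8 against 8.64 and 29.1 CPM (1.64, SE 0.35). LGR5, a stem cell receptor for R-spondins, stood at 22.1 and 24.6 against 58.0 and 53.7 CPM (-1.26, SE 0.21). The sides did not overlap for STAT4, SOD3 or LGR5, and none of these 3 passed in either tool. CPZ and KIF20AL had log2 differences of -1.03 (SE 0.19) and -1.06 (SE 0.20).

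Genes answering to interferon differed between the sides mainly in the hydrogen sulfide pair. Over 22 genes the median was 1.23, and 14 were higher with no overlap, beside 14.0% of all tested genes. The median was 2.22 in the hydrogen sulfide pair and 0.17 in the control pair. RSAD2, the antiviral protein viperin, stood at 1206 and 141 against 27.8 and 109 CPM (2.90, SE 1.65). The list's summed level was 8651 and 3971 CPM against 1587 and 3581 CPM. Hydrogen sulfide replicate 1 was highest and replicate 2 lowest, with the controls close together between them. No member passed the test.

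The remaining lists had medians between -0.15 and 0.18 or differed in sign between the pairs. Medians were 0.17 for B cells and plasma cells, 0.16 for T cells and natural killer cells, 0.09 for the cell cycle and 0.12 for thyroid, thymus and oesophagus. Genes that are X-linked in mammals but autosomal in chicken had a median of 0.05 over 21 genes. Across genes, the pair differences had r = 0.35 and rho = 0.13 over 640 Z genes, r = 0.098 over the 581 coding ones among them, and r = -0.28 and rho = -0.24 over 13006 autosomal genes. The pairs share no library, and genes are not independent replicates.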

How the data were processed

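The authors deposited 1 table of raw read counts per gene, with 1 column per library and no normalization, made from reads aligned with HISAT2, per the submitters' processing notes. Neither the counting program nor the genome build or strand setting is given in the sources used here, so no coordinates are printed. Of 26296 gene names, 16640 matched the RefSeq table of GRCg7b by symbol, 521 by gene number and 376 by synonym, and 8759 matched none. That table was used for names, chromosomes and gene order only. No sequence is printed.

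A library was hen-like with at least 100 reads of the 4 markers. Counts were filtered with filterByExpr, scaled by TMM and tested with edgeR 4.0.16 in R 4.3.3 (glmQLFit, glmQLFTest) on exposure plus side, with 1 residual degree of freedom and Benjamini-Hochberg adjustment over 16545 genes. The standard error is the absolute log2 difference divided by the square root of F. The common biological coefficient of variation was 35.0%. Per-library log2 values used a prior count of 2. A count of 3 reads equals 0.136 to 0.177 CPM, and these limits cover counting error only. The scripts were tested on simulated data.

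Alternatives were DESeq2 1.42.0, limma-voom 3.58.1, other scalings and filters, no block, the replicate number as block, each pair alone and each library left out. The sides, members, lists and tests were chosen with earlier results of these data known. Named genes were the 10 most abundant W genes and the markers, the 8 largest decreases and increases on Z at 5 CPM or more with the same direction in both pairs, Z and W partners, the 5 smallest p per direction elsewhere, and the smallest p of each list. Autosomal genes by p, DESeq2 calls and abundant Z genes were added after their values were seen.

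Deviations of same-numbered libraries from their group means had r = -0.00197 over 16545 genes. Each number joins 1 hen-like and 1 cock-like library, so this value is mixed with side. Libraries of the same side had r = -0.28 over 13006 autosomal genes and 0.35 over 640 Z genes. By construction these repeat the correlations of the pair differences given above, where r was 0.098 over 581 coding Z genes. Whether the numbers pair the libraries cannot be told from this check. No library was a copy of another: chi-square divided by its degrees of freedom lay between 64.7 and 112. An item of a gene list is not reported here.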

Additional observations from a re-analysis of the deposited data

Results flagged for a closer look

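Some values went opposite ways in the hydrogen sulfide pair and the control pair, each of which is 1 hen-like and 1 cock-like library. The differences between the pairs were not tested, since each combination of exposure and side is 1 library. All values are log2 differences, hen-like minus cock-like, and medians for lists. The widest were in muscle and cartilage. Skeletal muscle stood at 1.18 in the hydrogen sulfide pair and -2.32 in the control pair, smooth muscle at 0.614 and -0.836, and TPM2, a tropomyosin gene on Z, at 0.888 and -2.62. Cartilage ran the other way, at -0.502 and 2.3. Adipose genes stood at 0.31 and -0.723, and immediate early genes, which stress and handling turn on, at -0.114 and 1.04. Macrophages, dendritic cells and heterophils stood at 0.372 and -0.199. Mucous and secretory cells stood at 0.386 and -0.0248.

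Lists tied to sex by function also changed sign, at small values. Sex steroid receptors and cofactors stood at -0.0807 and 0.226, steroid synthesis and conversion at 0.00424 and -0.272, and gonad differentiation at 0.158 and -0.151. Genes that are X-linked in mammals stood at -0.0135 and 0.153.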

How the results depend on the processing

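Calls outside W numbered 0 in edgeR. They numbered 7 with no exposure block, all higher, and 24 in DESeq2, 14 higher and 10 lower. With the replicate number as block in place of exposure they numbered 4, all higher. Leaving out 1 library gave 0 to 3, all higher, with 3 without hydrogen sulfide replicate 1 and 2 without control replicate 2. Of the 14 higher DESeq2 calls, 12 could pass the filter only through the hen-like side. The members of the other sets of higher calls are not given here, so none of these counts is support for a difference. By list, DESeq2 called 3 ciliated cell genes, 1 skeletal muscle gene and 1 gene of the Z and W partner list. That last gene, UBAP2, is among the 12.

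The Z median of -0.565 became -0.605 with library totals, -0.582 with TMM on autosomal genes and -0.578 in the control pair, and ran from -0.588 to -0.537 with 1 library left out. The distance of Z from the autosomal median, -0.601, was -0.607 with a mean of at least 1 CPM, -0.595 with no exposure block, -0.605 in DESeq2, -0.597 in limma-voom, -0.596 in the control pair and -0.592 in the hydrogen sulfide pair. It was -0.605 for Z genes of at least 5 CPM, -0.597 without the Z and W partner list and -0.598 without the ciliated cell list, an alternative added after seeing the data. Leaving out 1 library gave -0.602 to -0.559. The cause of these moves was not tested. Z genes, ciliated cell genes and interferon genes without overlap stayed within 1.5 times of their counts.

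List medians that moved by more than the spread of the pairs were these. Dosage and male-determining genes stood at -0.44 in the hydrogen sulfide pair, gonad differentiation at 0.16 in the hydrogen sulfide pair, and steroid synthesis at -0.27 in the control pair. The growth hormone axis stood at 0.084 with library totals and 0.058 with no exposure block. Thyroid, thymus and oesophagus stood at 0.020 with a mean of at least 1 CPM and -0.10 with no exposure block. With 1 library left out, medians ran from -0.40 to 0.67 for B cells and plasma cells, -0.19 to 0.39 for T cells and natural killer cells, -0.052 to 0.19 for genes X-linked in mammals, -0.44 to 0.62 for the cell cycle, -0.66 to -0.38 for ciliated cells, -0.29 to 0.02 for dosage and male-determining genes, -0.060 to 0.76 for egg and yolk genes. They ran from -0.24 to -0.07 for gonad differentiation, -0.12 to 0.17 for the growth hormone axis, -0.28 to 0.63 for macrophages and related cells, -0.15 to 0.45 for mucous cells, -0.20 to 0.07 for steroid synthesis, -0.27 to 0.25 for thyroid, thymus and oesophagus and -0.66 to -0.57 for the Z and W partner list.

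Among named genes, with 1 library left out, LOC100857745 ran from -0.26 to 1.43 and SPDEF from -0.21 to 2.29, both lowest without hydrogen sulfide replicate 1. UHRF1 ran from -0.19, without control replicate 2, to 0.90. TPM2 ran from -2.20 to 0.27, with 0.11 without control replicate 1 and 0.27 without control replicate 2, and stood at 0.89 in the hydrogen sulfide pair. The cause was not tested. Depth limits genes near 3 reads, and 2 libraries a side limit every test.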
